A study of Homo sapiens with 9 samples.

Results

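The interferon-stimulated and antigen presentation genes described here were 48 genes listed by symbol, and all 48 were found among the 58884 gene identifiers of the deposited tables. DDX58 is the gene that newer annotations call RIGI. Levels are in FPKM, which counts the reads or fragments of a gene per length of its exons, scaled to the library total, so that genes can be compared per length. Of the 48 genes, 39 reached at least 0.5 FPKM in at least 3 of the 9 libraries and were tested among 14454 genes, and 9 stayed below that level.

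The libraries came from HK-2, an immortal cell line derived from the proximal tubule epithelium of a human kidney and grown in a keratinocyte serum-free medium with pituitary extract and epidermal growth factor. Of the 9 libraries, 3 came from cells given lactoferrin for 6 h and then fine particulate matter (PM2.5) for 18 h, here called lactoferrin+PM2.5. Another 3 came from cells exposed to PM2.5 for 24 h, and the last 3 from control cells, labelled untreated and, in the treatment protocol, given vehicle. PM2.5 stands for airborne particles of small diameter, and lactoferrin is an iron-binding protein of milk and neutrophils. The doses in the series text are 40 mg/ml for lactoferrin and 1 mg/ml for PM2.5, and the units could not be checked. The time in PM2.5 differed between the exposed groups, and no group had lactoferrin without PM2.5. Whether replicates were separate cultures is not stated in the labels, so p-values here describe only the spread among these libraries, which may be technical.

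Interferons are secreted proteins that bind receptors on neighbouring cells, and the receptors signal through Janus kinases to STAT and IRF transcription factors. Type I and type III interferons act mostly through a complex that includes STAT2 and IRF9 and binds the interferon-stimulated response element (ISRE), whereas interferon gamma acts through STAT dimers that bind the GAS element. Their targets include antiviral effectors, the ubiquitin-like protein ISG15 and the class I antigen presentation route, in which the immunoproteasome cuts peptides, the TAP transporter moves them into the endoplasmic reticulum, and class I heavy chains with beta-2-microglobulin carry them to the surface. Epithelial cells of the renal tubule are known to present peptides on class I molecules and to respond to interferon.

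The tables corresponded to between 15313451 and 18820465 assigned reads or fragments per library. The first principal component (54.4% of the variance) separated the exposed libraries from control. The next component (13.5%) set lactoferrin+PM2.5 replicate 1 apart at 38.0, against 7.93 and -7.10 in the other libraries of its group, and the third (8.86%) set control replicate 3 apart at 27.1. Of 16 proximal tubule and epithelial markers 9 reached 0.5 FPKM in some library, among them KRT8, KRT18, KRT19 and PAX8. This list summed to 519 to 598 FPKM with lactoferrin+PM2.5, 532 to 542 FPKM with PM2.5 and 592 to 627 FPKM in control, and limma called 1 of the 9 higher and 3 lower with PM2.5 than in control. The proximal tubule genes LRP2, CUBN and AQP1, and PAX2 of the same list, were absent or nearly so, at no more than 0.139 FPKM. Of 12 immune cell markers 2 (CD14 and CSF1R) reached 0.5 FPKM, 3 were at 0 throughout, and the leukocyte gene PTPRC was at most 0.0116 FPKM. The summed immune markers were 1.69 to 2.25 FPKM with lactoferrin+PM2.5, 1.24 to 2.17 FPKM with PM2.5 and 1.37 to 2.41 FPKM in control. Of 10 endothelial and fibroblast markers 3 (COL1A1, DCN and LUM) reached 0.5 FPKM. Their list summed to 50.8 to 55.1 FPKM with lactoferrin+PM2.5, 66.2 to 68.1 FPKM with PM2.5 and 48.1 to 54.4 FPKM in control. Of these 3 markers limma called 2 higher and 1 lower with PM2.5 than in control. The part of the differences in the epithelial and the endothelial and fibroblast lists in the results below was not tested.

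Members were called in both directions with PM2.5, at shares near those over all tested genes. TAP1 and TAP2, the subunits of the peptide transporter, and HLA-E, a class I molecule read by natural killer cells, were higher with PM2.5 than in control. IFIT1, IFITM1, IFITM3, ISG15, the RNA sensor gene DDX58 and the transcription factor gene IRF7 were lower. Among the IFIT genes, IFIT3 and IFIT5 were higher while IFIT1, which lies between them on chromosome 10, was lower. With lactoferrin+PM2.5 no member differed from PM2.5 past the threshold. In bulk RNA, fewer expressing cells and less RNA per cell cannot be told apart.

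In numbers, 8 of the 39 tested members (20.5%) were higher with PM2.5 than in control and 6 (15.4%) were lower, at an adjusted p under 0.05 in limma with Benjamini-Hochberg adjustment over all tested genes. Over all 14454 tested genes the shares called were 18.5% higher and 16.5% lower, 35.0% in all. The members' shares lay near that background, so the counts are not a result about these genes as a set. Their median log2 fold change was 0.10, beside 0.00036 over all tested genes. The groups did not overlap for 22 of the 39 members, against 53.6% of all tested genes. All 14 called members had groups that did not overlap, which is no separate support, since both rest on the same values. Of these 14 calls, 9 held under all 21 alternative settings, namely those of TAP1, TAP2, HLA-E, IFIT1, IFITM1, IFITM3, ISG15, DDX58 and IRF7. The count of members called higher depended on single libraries, being 4 without control replicate 1, 5 without control replicate 2, and 3 each when replicate 2 or replicate 3 of PM2.5 was left out. Without both libraries that stood apart, 9 were higher and 8 lower.

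**Figure D1:**
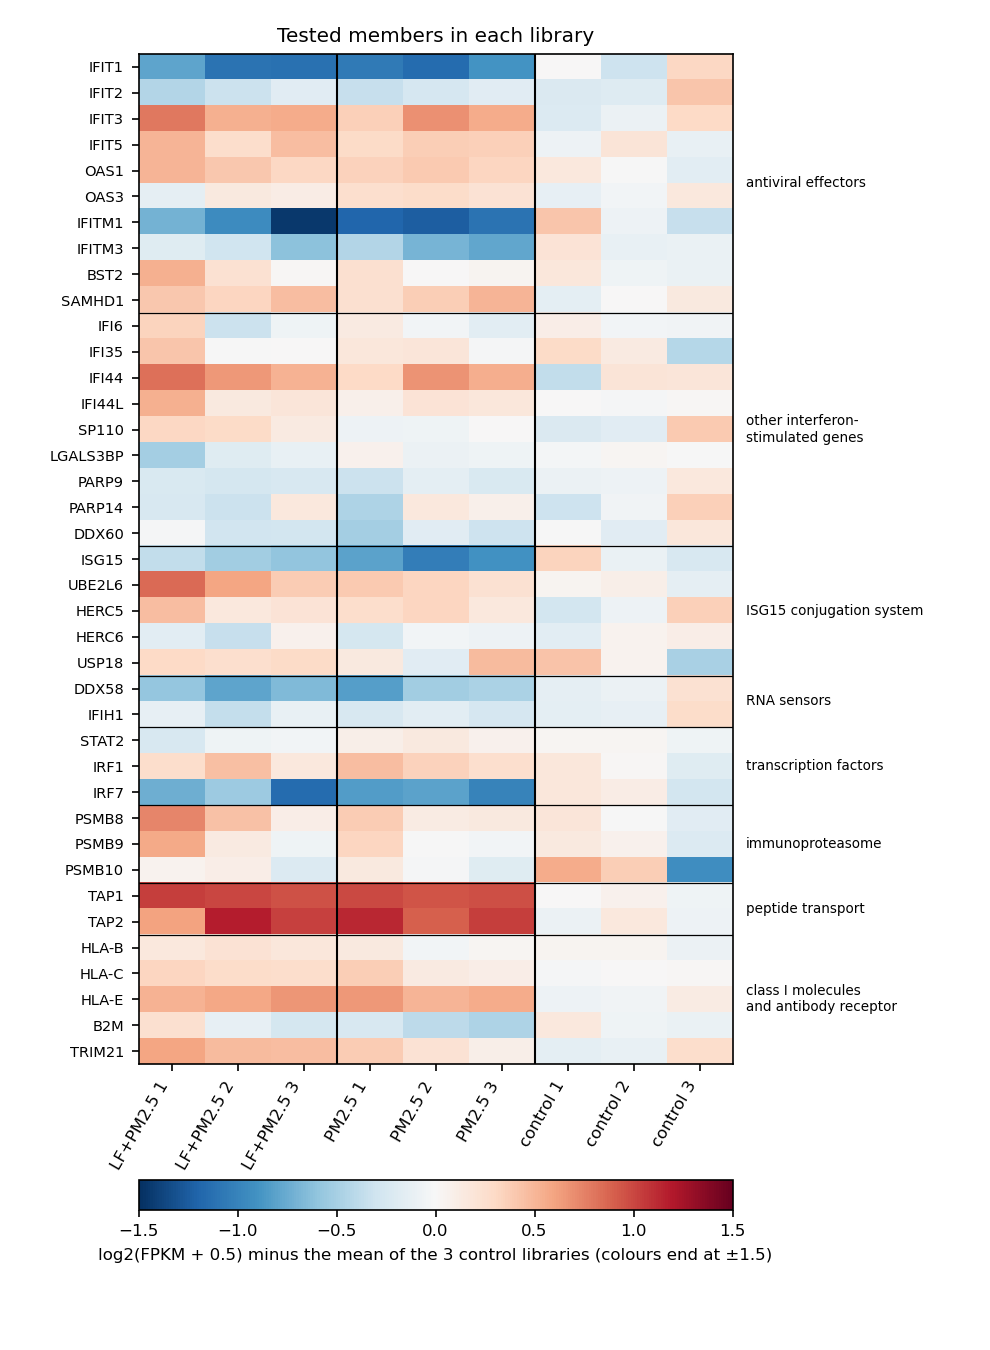
The 39 tested members (rows, grouped by role) in the 9 libraries (columns, lactoferrin+PM2.5, PM2.5 and control from left to right). Colour is log2(FPKM + 0.5) after scaling, minus the mean of the 3 control libraries. TAP1 and TAP2 are red in every exposed library, IFIT1, IFITM1, ISG15, DDX58 and IRF7 are blue in every exposed library, and the lactoferrin+PM2.5 and PM2.5 columns look alike for most genes.

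The promoters of members called in either direction are printed for comparison, since most of them hold the same ISRE letters. The ISRE core was searched as GAAA, any 2 bases and GAAA, and the GAS element as TTC, any 3 bases and GAA, on both strands in windows of 300 bases around the RefSeq start site (GRCh38.p14), and matches of the motifs may share bases, as they did in BST2, IFITM1, MX1 and IFI27. A window was found for 40 of the 48 members. Of these, 26 (65.0%) held the ISRE core and 13 (32.5%) the GAS letters, compared with 4.38% and 9.38% of 27305 genes. The members were listed as genes of the interferon response, so these shares describe the list and are not a result of these data. Each stretch of 30 bases below lies upstream of the start site and is written 5′ to 3′ on the gene's strand, with the ISRE matches of either strand in capitals. The first 5 genes were called higher with PM2.5 and the last 4 lower.
TAP1, chr6:32853816-32853845, minus strand: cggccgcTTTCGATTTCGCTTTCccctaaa
TAP2, chr6:32838778-32838807, minus strand: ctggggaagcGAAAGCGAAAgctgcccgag
IFIT3, chr10:89327831-89327860, plus strand: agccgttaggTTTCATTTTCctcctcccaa
IFIT5, chr10:89414513-89414542, plus strand: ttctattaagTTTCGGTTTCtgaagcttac
IFI44, chr1:78649759-78649788, plus strand: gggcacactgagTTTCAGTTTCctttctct
IFIT1, chr10:89392504-89392533, plus strand: tagTTTCACTTTCcccTTTCGGTTTCccta
IFITM1, chr11:313990-314019, plus strand: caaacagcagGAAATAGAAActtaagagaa
IFITM3, chr11:320884-320913, minus strand: gGAAAAGGAAActgttgaGAAACCGAAAct
ISG15, chr1:1013377-1013406, plus strand: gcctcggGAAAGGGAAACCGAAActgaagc

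ISRE matches stood in promoters of members called in either direction. They were found in 5 of the 7 members called higher that had a window (TAP1, TAP2, IFIT3, IFIT5 and IFI44, not SAMHD1 or IRF1) and in 4 of the 5 called lower (IFIT1, IFITM1, IFITM3 and ISG15, not DDX58). Of the 23 members with a window that were tested and not called, 14 held the match. A match is a description of the letters and says nothing of binding in these cells.

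**Figure D2:**
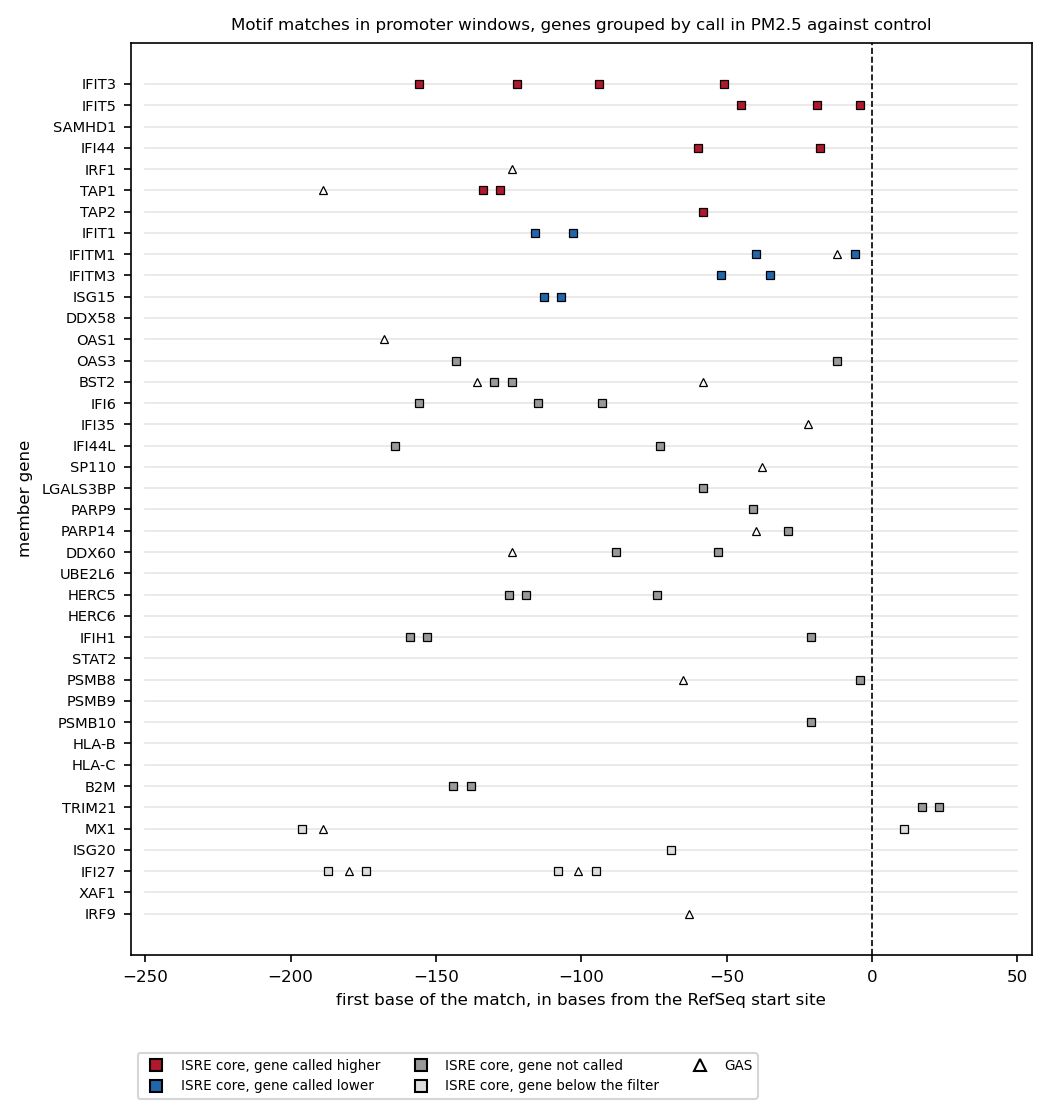
Positions of ISRE core matches (squares) and GAS matches (triangles) in the promoter windows of the members, in bases from the RefSeq start site (dashed line), with genes grouped by their call in PM2.5 against control. Squares occur in the promoters of members called higher (red), lower (blue) and not called (grey), mostly upstream of the start site.

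Peptide transport was the role with the largest increases, and its 2 members were both called. TAP1 (ENSG00000168394, GRCh38 chromosome 6, 32845209 to 32853978, minus strand) stood at 8.38, 8.39 and 8.17 FPKM with lactoferrin+PM2.5, 8.14, 7.99 and 8.27 FPKM with PM2.5, and 3.89, 4.05 and 3.41 FPKM in control. Every exposed library was above every control library, and the spread within groups was small. The log2 fold change of PM2.5 against control was 0.97 ± 0.07 (SE, adjusted p = 1.7e-05). TAP2 (ENSG00000204267, chromosome 6, 32821833 to 32838780, minus strand), the other subunit, stood at 2.84, 4.58 and 4.12 FPKM with lactoferrin+PM2.5, 4.32, 3.67 and 4.17 FPKM with PM2.5, and 1.59, 1.96 and 1.49 FPKM in control. The groups exposed to PM2.5 lay above control without overlap, and lactoferrin+PM2.5 replicate 1, which stood apart from its group, held the lowest of their values. The log2 fold change of PM2.5 against control was 1.02 ± 0.15 (adjusted p = 0.00091). TAP2 shares 32.3% of its exon bases with AL669918.1, which was listed at 0 in every library.

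The immunoproteasome genes, which lie beside the TAP genes, were not called. PSMB9 encodes an inducible catalytic subunit and is read in the opposite direction to TAP1, with RefSeq start sites 488 bases apart. It stood at 5.60, 4.14 and 3.58 FPKM with lactoferrin+PM2.5, 4.65, 3.67 and 3.64 FPKM with PM2.5, and 4.13, 3.82 and 2.89 FPKM in control. Its groups overlapped, and the log2 fold change of PM2.5 against control was 0.09 ± 0.17 (adjusted p = 0.726). The 95% interval of -0.30 to 0.48 did not reach the change of TAP1. The strand setting of the counting is not given in the sources used here, and TAP1 shares 9.49% of its exon bases with other genes, so reads from such stretches could not be told apart.

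PSMB8, the most abundant of the 3 inducible subunits, averaged 14.2 ± 2.94 FPKM with lactoferrin+PM2.5, 12.1 ± 1.08 FPKM with PM2.5 and 10.04 ± 1.64 FPKM in control (SD, n = 3 each). Its log2 fold change with PM2.5 was 0.22 ± 0.16 (adjusted p = 0.317). PSMB8 shares 20.6% of its exon bases with PSMB8-AS1 and PSMB9 on the opposite strand, and the strand setting of the counting is not given. PSMB10 stood at 3.24, 3.44 and 2.74 FPKM with lactoferrin+PM2.5, 3.50, 3.12 and 2.79 FPKM with PM2.5, and 4.90, 4.20 and 1.30 FPKM in control. Control replicate 3 was thus below every exposed library, and the other control libraries were above them. PSMB10 was not called with all libraries (-0.02 ± 0.33, adjusted p = 0.971). Without control replicate 3 it was called lower with PM2.5 (-0.50, adjusted p = 0.026) and with lactoferrin+PM2.5 (-0.50, adjusted p = 0.0249). It shares 34.8% of its exon bases with AC040162.1, which reached at most 0.314 FPKM.

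The inducible subunits were a small part of the proteasome's catalytic transcripts. The FPKM of PSMB8 was 9.81% ± 0.140 of that of PSMB5, the constitutive subunit that it replaces, with lactoferrin+PM2.5, 10.5% ± 0.382 with PM2.5 and 9.38% ± 0.299 in control (SD, n = 3 each). For PSMB9 relative to PSMB6 the ratio was 4.63% ± 0.290 with lactoferrin+PM2.5, 5.56% ± 0.201 with PM2.5 and 5.05% ± 0.514 in control. For PSMB10 relative to PSMB7 it was 1.88% ± 0.243 with lactoferrin+PM2.5, 2.33% ± 0.201 with PM2.5 and 2.84% ± 1.30 in control, where control replicate 3 held 1.34% and the other control libraries 3.59% and 3.60%. These ratios are descriptions and were not tested. The 3 constitutive genes PSMB5, PSMB6 and PSMB7 were not called with PM2.5 by limma, and 0 of them had an unadjusted p under 0.05.

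Of the 4 class I genes HLA-B, HLA-C, HLA-E and B2M, 1 was called with PM2.5. HLA-E (ENSG00000204592, chromosome 6, 30489467 to 30494205, plus strand) stood at 40.7, 43.7 and 46.8 FPKM with lactoferrin+PM2.5, 44.8, 41.3 and 43.6 FPKM with PM2.5, and 27.3, 27.3 and 29.1 FPKM in control. All exposed libraries lay above all control libraries. The log2 fold change with PM2.5 was 0.57 ± 0.08 (adjusted p = 0.00094). HLA-B, a classical heavy chain, averaged 52.7 ± 1.92 FPKM with lactoferrin+PM2.5, 47.8 ± 2.75 FPKM with PM2.5 and 44.9 ± 4.20 FPKM in control (SD, n = 3 each) and was not called (0.04 ± 0.08, adjusted p = 0.719). Class I genes are near-identical in long stretches, so reads could have been split among them.

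B2M, the light chain that all class I molecules need, was the member of this role with the highest level. It stood at 91.8, 73.2 and 67.1 FPKM with lactoferrin+PM2.5, 66.0, 60.1 and 58.6 FPKM with PM2.5, and 88.3, 74.6 and 68.0 FPKM in control. The PM2.5 libraries were all below the control libraries, whose replicates spread widely. The log2 fold change with PM2.5 was -0.36 ± 0.14 (adjusted p = 0.0659) and did not pass the threshold. It passed in 5 of the 21 alternatives, among them the fit without both libraries that stood apart (-0.43, adjusted p = 0.0140). TRIM21, a cytosolic antibody receptor, was not called with PM2.5 (0.23 ± 0.13, adjusted p = 0.195). It was called higher without control replicate 3 (0.34, adjusted p = 0.0335) and without both libraries that stood apart (0.34, adjusted p = 0.0214).

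**Figure D3:**
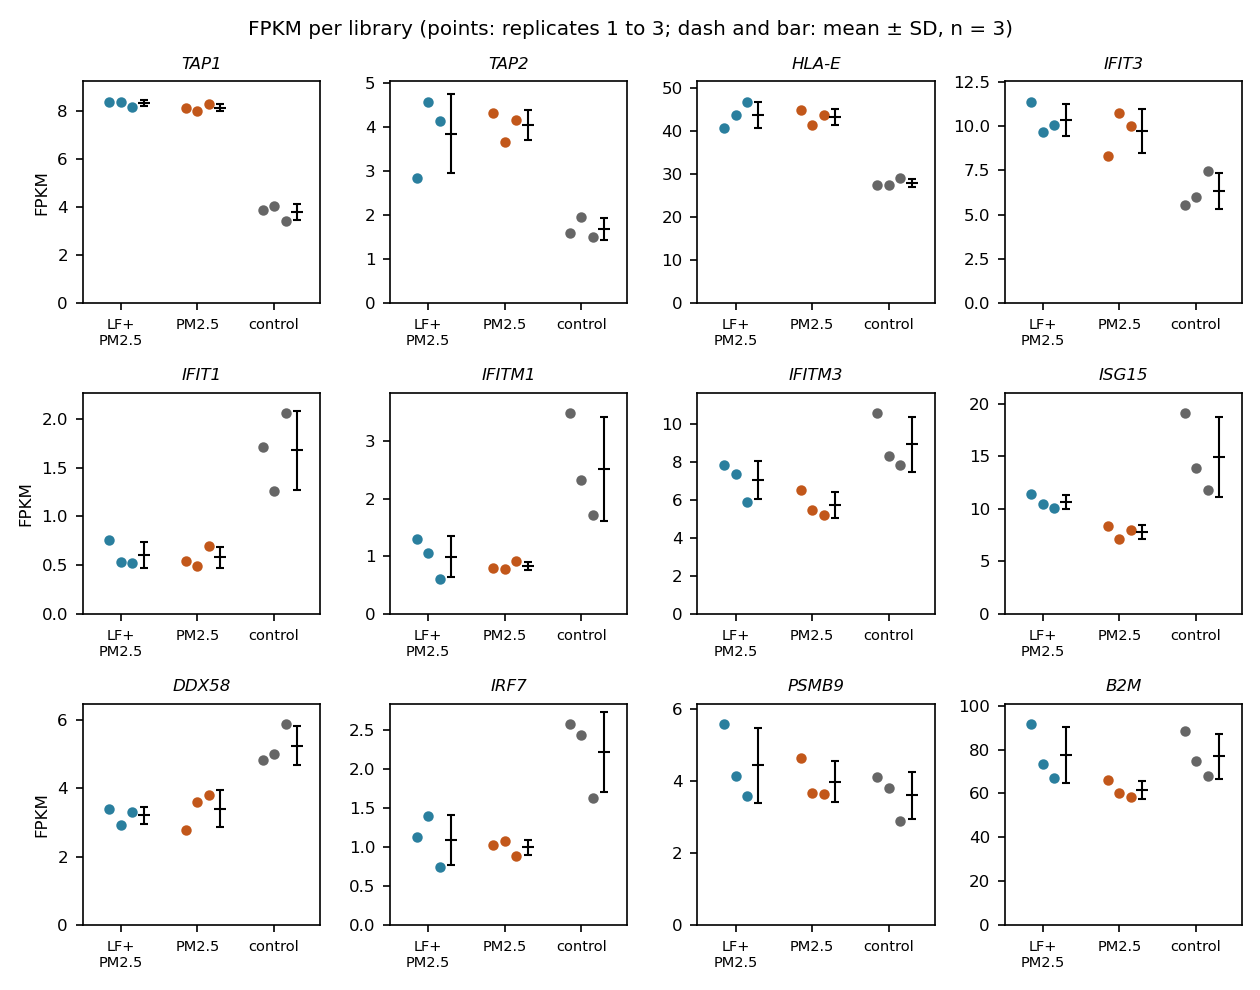
FPKM of 12 members in each library. Points are the replicates of lactoferrin+PM2.5, PM2.5 and control from left to right, with the mean ± SD (n = 3) beside them, and each axis starts at 0. For TAP1, TAP2, HLA-E and IFIT3 the exposed libraries lie above control, for IFIT1, IFITM1, ISG15, DDX58 and IRF7 they lie below it, and for PSMB9 the groups overlap.

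The antiviral effectors held calls in both directions, as did all tested genes, of which 18.5% were called higher and 16.5% lower with PM2.5. Of the 10 tested members of this role, IFIT3, IFIT5 and SAMHD1 were higher with PM2.5, IFIT1, IFITM1 and IFITM3 were lower, and IFIT2, OAS1, OAS3 and BST2 were not called. IFIT proteins bind viral RNA, and their genes form a cluster on the plus strand of chromosome 10. IFIT1 (ENSG00000185745, 89392546 to 89406486) stood at 0.760, 0.530 and 0.523 FPKM with lactoferrin+PM2.5, 0.547, 0.495 and 0.702 FPKM with PM2.5, and 1.71, 1.26 and 2.06 FPKM in control. Every exposed library was below every control library. The log2 fold change with PM2.5 was -1.03 ± 0.18 (adjusted p = 0.0020), from 38 to 166 reads or fragments per library.

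IFIT3, the nearest member on the lower-coordinate side of IFIT1 (ENSG00000119917, 89327894 to 89340971), stood at 11.4, 9.67 and 10.05 FPKM with lactoferrin+PM2.5, 8.34, 10.8 and 10.03 FPKM with PM2.5, and 5.56, 6.00 and 7.46 FPKM in control. The groups exposed to PM2.5 lay above control without overlap (0.53 ± 0.14 with PM2.5, adjusted p = 0.0183). IFIT5, on the other side (ENSG00000152778, 89414586 to 89421001), stood at 6.30, 5.35 and 6.33 FPKM with lactoferrin+PM2.5, 5.35, 5.79 and 5.81 FPKM with PM2.5, and 4.07, 4.98 and 3.67 FPKM in control, also without overlap between PM2.5 and control (0.34 ± 0.11, adjusted p = 0.0340). The promoter stretches printed above hold an ISRE core in all 3 genes. The call of IFIT3 was lost when control replicate 1 or 2, or replicate 2 or 3 of PM2.5, was left out (adjusted p between 0.0548 and 0.0666). That of IFIT5 was lost without control replicate 1, control replicate 3 or any PM2.5 replicate (between 0.0626 and 0.101). The IFIT5 call was also lost with no filter on low values (0.0690) and without both libraries that stood apart (0.0668). It held in 14 of 21 alternatives.

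IFITM proteins sit in membranes and hinder the entry of enveloped viruses. IFITM1 (ENSG00000185885, chromosome 11, 313506 to 315272, plus strand) stood at 1.31, 1.06 and 0.611 FPKM with lactoferrin+PM2.5, 0.803, 0.774 and 0.910 FPKM with PM2.5, and 3.49, 2.32 and 1.71 FPKM in control. It was low in all exposed libraries (-1.18 ± 0.22 with PM2.5, adjusted p = 0.0035), on 10 to 58 reads or fragments. IFITM3 (ENSG00000142089, chromosome 11, 319669 to 327537, minus strand) stood at 7.85, 7.39 and 5.91 FPKM with lactoferrin+PM2.5, 6.53, 5.47 and 5.23 FPKM with PM2.5, and 10.6, 8.34 and 7.87 FPKM in control. The PM2.5 libraries lay below control without overlap (-0.64 ± 0.14, adjusted p = 0.0080). These genes and IFITM2 are near-identical copies, and IFITM1 shares 32.5% of its exon bases with IFITM2 in the annotation, so their separate values are uncertain. IFITM3 shares 21.3% of its exon bases with AC136475.5 on the opposite strand, and the strand setting of the counting is not given. IFITM2 was listed at 0, 0 and 0.165 FPKM with lactoferrin+PM2.5, at 0 in every PM2.5 library, and at 0.296, 0.391 and 0.260 FPKM in control.

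SAMHD1, a phosphohydrolase that lowers the supply of deoxynucleotides to viruses, stood at 4.52, 4.37 and 4.92 FPKM with lactoferrin+PM2.5, 3.99, 4.50 and 5.12 FPKM with PM2.5, and 2.97, 3.32 and 3.50 FPKM in control. Its groups did not overlap between PM2.5 and control (0.37 ± 0.11, adjusted p = 0.0237). The call was lost on leaving out control replicate 1 or 2, or replicate 2 or 3 of PM2.5 (adjusted p between 0.0625 and 0.0921). OAS1, which makes the second messenger that activates RNase L, stood at 0.957, 0.873 and 0.798 FPKM with lactoferrin+PM2.5, 0.804, 0.857 and 0.805 FPKM with PM2.5, and 0.648, 0.526 and 0.394 FPKM in control. The exposed libraries were all above control, but the change with PM2.5 did not pass the threshold (0.35 ± 0.13, adjusted p = 0.0589). It passed in 2 of 20 alternatives, limma-voom on rebuilt reads or fragments (0.64, adjusted p = 0.0260) and limma without trend and robust fitting (adjusted p = 0.0257). BST2, the tether of budding virus, had the highest level of the role, at 135 ± 22.0 FPKM with lactoferrin+PM2.5, 119.8 ± 9.32 FPKM with PM2.5 and 109 ± 14.7 FPKM in control (SD, n = 3 each), and its groups overlapped (0.10 ± 0.14 with PM2.5, adjusted p = 0.634).

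Of the 9 tested members among the other interferon-stimulated genes, 1 was called with PM2.5 by limma, IFI44, which was higher. IFI44 (ENSG00000137965, chromosome 1, 78649796 to 78664078, plus strand) stood at 2.37, 2.12 and 1.90 FPKM with lactoferrin+PM2.5, 1.502, 2.13 and 1.95 FPKM with PM2.5, and 0.769, 1.36 and 1.27 FPKM in control. PM2.5 replicate 1 was close to the highest control library, and the groups did not overlap (0.50 ± 0.17, adjusted p = 0.0476). The call was lost when control replicate 1, or replicate 2 or 3 of either exposed group, was left out (adjusted p between 0.0514 and 0.145). It was also lost with no filter on low values (0.112), with only the 6 libraries compared (0.0670) and without trend and robust fitting (0.0509). The call held in 13 of 21 alternatives. LGALS3BP, a secreted glycoprotein gene and the most abundant of this role, averaged 71.3 ± 11.5 FPKM with lactoferrin+PM2.5, 83.3 ± 3.79 FPKM with PM2.5 and 82.1 ± 4.05 FPKM in control (SD, n = 3 each), with a log2 fold change with PM2.5 of -0.03 ± 0.11 (adjusted p = 0.852).

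In the ISG15 conjugation system, in which ISG15 is joined to proteins by the carrier enzyme UBE2L6 and the ligases HERC5 and HERC6 and removed by USP18, 1 of 5 members was called with PM2.5. ISG15 (ENSG00000187608, chromosome 1, 1001138 to 1014540, plus strand) stood at 11.4, 10.5 and 10.1 FPKM with lactoferrin+PM2.5, 8.33, 7.11 and 8.03 FPKM with PM2.5, and 19.2, 13.9 and 11.8 FPKM in control. The PM2.5 libraries were the lowest, those with lactoferrin+PM2.5 lay between, and no groups overlapped. The log2 fold change of PM2.5 against control was -0.92 ± 0.14 (adjusted p = 0.0013). UBE2L6 went the other way in level, at 28.2, 24.1 and 21.1 FPKM with lactoferrin+PM2.5, 20.5, 19.9 and 18.8 FPKM with PM2.5, and 16.2, 16.5 and 13.2 FPKM in control. Its groups did not overlap either, but the change with PM2.5 did not pass the threshold (0.32 ± 0.12, adjusted p = 0.0690). It passed in 5 of the 21 alternatives, among them the replicate block (adjusted p = 0.0201) and the fit of only the 6 libraries compared (0.0229). HERC5 was not called with PM2.5 (0.25 ± 0.15, adjusted p = 0.245), and was called higher without control replicate 3 (0.41, adjusted p = 0.0269).

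Of the RNA sensors, which recognise viral RNA in the cytosol, DDX58 was called and IFIH1 was not. DDX58 (ENSG00000107201, chromosome 9, 32455705 to 32526324, minus strand) stood at 3.39, 2.91 and 3.30 FPKM with lactoferrin+PM2.5, 2.78, 3.60 and 3.81 FPKM with PM2.5, and 4.83, 4.98 and 5.88 FPKM in control. All exposed libraries were below all control libraries (-0.61 ± 0.13 with PM2.5, adjusted p = 0.0064). IFIH1 averaged 0.984 ± 0.145 FPKM with lactoferrin+PM2.5, 0.961 ± 0.0571 FPKM with PM2.5 and 1.16 ± 0.227 FPKM in control (SD, n = 3 each), with a log2 fold change of -0.21 ± 0.14 with PM2.5 (adjusted p = 0.262).

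The transcription factors IRF7 and IRF1 moved in opposite directions, although the call of IRF1 depended on the setting. IRF7, which drives type I interferon genes once it is phosphorylated (ENSG00000185507, chromosome 11, 612553 to 615999, minus strand), stood at 1.13, 1.40 and 0.7497 FPKM with lactoferrin+PM2.5, 1.02, 1.08 and 0.886 FPKM with PM2.5, and 2.58, 2.44 and 1.64 FPKM in control. Its exposed libraries were all below control (-0.88 ± 0.18 with PM2.5, adjusted p = 0.0046), on 31 to 106 reads or fragments. IRF1, an activator of class I and interferon-stimulated promoters, stood at 2.15, 2.58 and 2.03 FPKM with lactoferrin+PM2.5, 2.54, 2.35 and 2.21 FPKM with PM2.5, and 1.998, 1.75 and 1.35 FPKM in control. IRF1 shares 22% of its exon bases with genes on the opposite strand, and the strand setting of the counting is not given. Its PM2.5 libraries lay above control without overlap and its test just past the threshold (0.35 ± 0.12 with PM2.5, adjusted p = 0.0489). The call was lost when control replicate 2 or 3, any PM2.5 replicate, or replicate 1 or 2 of lactoferrin+PM2.5 was left out (adjusted p between 0.0511 and 0.158). It was also lost with median-of-ratios scaling (0.0570), with no filter on low values (0.111) and without trend and robust fitting (0.0502). Leaving out both libraries that stood apart (0.144) or removing the length and GC trend (0.104) lost it as well. The call held in 9 of 21 alternatives. STAT2 was the most abundant of the role, at 9.93 ± 0.971 FPKM with lactoferrin+PM2.5, 11.6 ± 0.358 FPKM with PM2.5 and 10.4 ± 0.818 FPKM in control (SD, n = 3 each), and was not called with PM2.5 (0.10 ± 0.08, adjusted p = 0.353).

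The 9 members below the filter were MX1, MX2, OAS2, OASL, IFITM2, ISG20, IFI27, XAF1 and IRF9, with a highest value of 0.391 FPKM and at most 36 reads or fragments in any library. They include genes that are among the usual readouts of an interferon response, such as the antiviral GTPase gene MX1. MX1 was listed at 0.222, 0.115 and 0.133 FPKM with lactoferrin+PM2.5, 0.175, 0.162 and 0.119 FPKM with PM2.5, and 0.114, 0.0981 and 0.0266 FPKM in control, and was not tested. XAF1 was listed at 0 in every library. IRF9 shares 48.4% of its exon bases with AL136295.5, so its low value is uncertain.

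Of 8 interferon ligand genes 0 reached the filter, so none was tested by limma. IFNB1, IFNG, IFNL1 and IFNL2 were listed at 0 in every library, and IFNA1, IFNE, IFNK and IFNL3 reached at most 2 reads or fragments. Of 8 tested receptor and kinase genes 1 was higher with PM2.5 and 1 lower. The background for this and the following list counts is 18.5% called higher and 16.5% lower over all tested genes. IFNLR1, the receptor chain for type III interferon, averaged 1.76 ± 0.361 FPKM with lactoferrin+PM2.5, 1.77 ± 0.0471 FPKM with PM2.5 and 0.881 ± 0.115 FPKM in control (SD, n = 3 each; 0.69 ± 0.12 with PM2.5, adjusted p = 0.0021). JAK1, the kinase shared by interferon receptors, averaged 46.7 ± 4.02 FPKM with lactoferrin+PM2.5, 60.8 ± 6.01 FPKM with PM2.5 and 78.6 ± 8.52 FPKM in control (-0.42 ± 0.12 with PM2.5, adjusted p = 0.0238). Of 12 other sensors and adaptors 2 were higher with PM2.5, the ubiquitin ligase gene TRIM25 (1.04 ± 0.10, adjusted p = 8.0e-05) and the DNA sensor gene CGAS (0.55 ± 0.08, adjusted p = 0.00099), and 1 was lower, the kinase gene IKBKE (-0.55 ± 0.14, adjusted p = 0.0133). The calls of IFNLR1, TRIM25 and CGAS held in all 21 alternatives, that of JAK1 in 18, with losses without PM2.5 replicate 1 or 3, and that of IKBKE in 19 of 20. TRIM25, which activates the product of DDX58, was thus higher where DDX58 was lower.

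Among further transcription factors of the response, STAT3 was lower with PM2.5 (-0.25 ± 0.08, adjusted p = 0.0364), and IRF2 (0.43 ± 0.12, adjusted p = 0.0244) and NLRC5, the activator of class I genes (0.42 ± 0.12, adjusted p = 0.0233), were higher. Of 7 inhibitors of the pathway SOCS3 was higher (0.59 ± 0.11, adjusted p = 0.0038), and the phosphatase gene PTPN6 (-0.44 ± 0.12, adjusted p = 0.0204) and USP25 (-0.74 ± 0.19, adjusted p = 0.0149) were lower. The call of SOCS3 held in all 21 alternatives, those of IRF2 and PTPN6 in 16, that of NLRC5 in 16 of 20, that of USP25 in 19 and that of STAT3 in 13, with the losses of STAT3 including each PM2.5 library left out (adjusted p up to 0.120).

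Among other class I loading and peptide supply genes, the chaperone genes CALR (0.41 ± 0.12, adjusted p = 0.0280) and CANX (0.55 ± 0.15, adjusted p = 0.0207) were higher with PM2.5, and TAPBPL, a peptide editor (-0.29 ± 0.10, adjusted p = 0.0490), lay just past the threshold on the lower side. The TAPBPL call held in 7 of 21 alternatives and was lost on leaving out any 1 control or PM2.5 library (adjusted p up to 0.132 over the alternatives). The call of CANX held in 17 and that of CALR in 14, lost for CALR with the length and GC trend removed and on leaving out any 1 PM2.5 library (adjusted p up to 0.106). Of 10 class II presentation genes only 4 passed the filter and were tested. CD74, the invariant chain, was lower with PM2.5 (-0.59 ± 0.10, adjusted p = 0.0019), as was HLA-DMA (-0.49 ± 0.12, adjusted p = 0.0121), and HLA-DMB was higher (0.45 ± 0.11, adjusted p = 0.0102). Without PM2.5 replicate 1 HLA-DMA was not called (adjusted p = 0.0528).

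The comparison of lactoferrin+PM2.5 with PM2.5 asked whether pretreatment changed the response, although the time in PM2.5 also differed. TAP1, TAP2 and HLA-E lay above control with lactoferrin+PM2.5 as they did with PM2.5, and IFIT1, IFITM1, DDX58 and IRF7 lay below control in both. ISG15 stood between PM2.5 and control. No member passed the threshold: 0 of the 39 were called in either direction by limma, where 0.0208% of all tested genes were called higher and 0.0277% lower, 7 genes (0.0484%) in all. At an unadjusted p under 0.05 there were 4 members, ISG15, UBE2L6 and B2M with higher values and STAT2 with lower values. limma-voom on rebuilt read or fragment counts also called 0 members, with 6 at an unadjusted p under 0.05. The smallest adjusted p was 0.363, that of ISG15.

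The members' log2 fold changes with lactoferrin+PM2.5 against PM2.5 ranged from -0.24 to 0.42, with 28 above 0 and 11 below. Their median was 0.06, beside -0.0029 over all tested genes, and it was 0.01 without lactoferrin+PM2.5 replicate 1. The groups did not overlap for 8 members, against 21.1% of all tested genes. For ISG15 the log2 fold change was 0.42 ± 0.14, with a 95% interval of 0.10 to 0.75, and it was 0.36 without lactoferrin+PM2.5 replicate 1. For UBE2L6 it was 0.29 ± 0.12, and 0.17 without that replicate. For B2M it was 0.32 ± 0.14, and 0.17 without that replicate. These 3 genes had their highest value of the group in that replicate, as did BST2, PSMB8 and PSMB9. The 95% intervals were narrow for TAP1 (-0.13 to 0.19) and HLA-E (-0.17 to 0.20), and wider for TAP2 (-0.42 to 0.25), IFIT1 (-0.37 to 0.42) and IFITM1 (-0.36 to 0.64). A change past the threshold was not detected, which does not show that the groups acted alike. In the lists of other pathway genes limma also called 0 genes, with between 0 and 3 per list at an unadjusted p under 0.05.

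**Figure D4:**
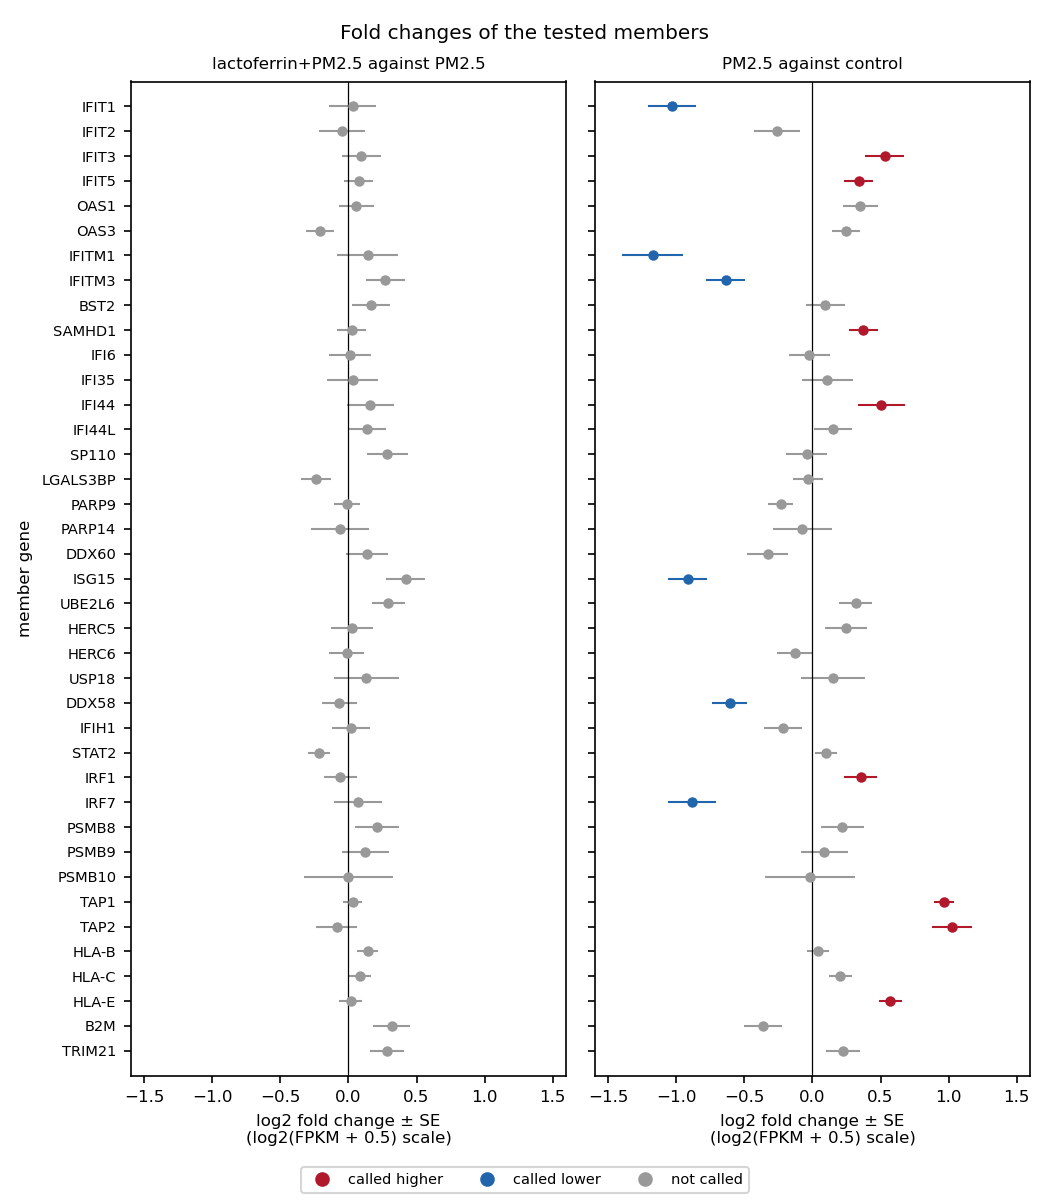
Log2 fold changes ± SE of the 39 tested members for lactoferrin+PM2.5 against PM2.5 (left) and PM2.5 against control (right), on the log2(FPKM + 0.5) scale. Against PM2.5 all points are grey, within -0.24 to 0.42, and against control 8 are called higher (red) and 6 lower (blue).

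With lactoferrin+PM2.5 the peptide transporter genes were higher than in control, and IFIT1, IFITM1, DDX58, IRF7 and ISG15 were lower. This comparison shares its 3 control libraries with that of PM2.5 against control. Here 11 of the 39 members (28.2%) were higher and 5 (12.8%) lower by limma at an adjusted p under 0.05, beside 19.6% higher and 18.5% lower over all tested genes. The median log2 fold change was 0.18, beside -0.01 over all tested genes, and it was 0.07 without both libraries that stood apart, a setting that left 10 members higher and 7 lower. Of the calls, 7 higher and 5 lower were also made with PM2.5 against control. TAP1 (1.00 ± 0.07, adjusted p = 1.1e-05), TAP2 (0.94 ± 0.15, adjusted p = 0.0012), HLA-E (0.59 ± 0.08, adjusted p = 0.00066), IFIT3 (0.63 ± 0.14, adjusted p = 0.0079), IFIT5 (0.41 ± 0.11, adjusted p = 0.0132), SAMHD1 (0.39 ± 0.11, adjusted p = 0.0167) and IFI44 (0.67 ± 0.17, adjusted p = 0.0141) were higher. IFIT1 (-1.005 ± 0.18, adjusted p = 0.0020), IFITM1 (-1.04 ± 0.22, adjusted p = 0.0057), DDX58 (-0.68 ± 0.13, adjusted p = 0.0034), IRF7 (-0.81 ± 0.18, adjusted p = 0.0061) and ISG15 (-0.49 ± 0.14, adjusted p = 0.0234) were lower. The call of ISG15 was lost without control replicate 1, lactoferrin+PM2.5 replicate 2 or lactoferrin+PM2.5 replicate 3 (adjusted p between 0.0560 and 0.0689), that of SAMHD1 without control replicate 1 (0.0525), and that of IFIT5 without both libraries that stood apart (0.0661). The ISG15 call was also lost with no filter on low values (0.0966) and with only the 6 libraries compared (0.0636). It held in 16 of 21 alternatives.

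Another 4 members were called with lactoferrin+PM2.5 against control and not with PM2.5 against control, and their difference between the exposed groups did not pass the test. UBE2L6 was higher (0.61 ± 0.12, adjusted p = 0.0039), as was OAS1 (0.41 ± 0.13, adjusted p = 0.0318). TRIM21 stood at 7.66, 7.20 and 7.26 FPKM with lactoferrin+PM2.5, 6.58, 5.90 and 5.46 FPKM with PM2.5, and 4.45, 4.53 and 5.66 FPKM in control. Its lactoferrin+PM2.5 libraries lay above all others (0.51 ± 0.13 with lactoferrin+PM2.5 against control, adjusted p = 0.0115). PM2.5 and control overlapped only through control replicate 3, and without it TRIM21 was called higher with PM2.5 too (0.34, adjusted p = 0.0335). HLA-C stood at 49.5, 49.1 and 49.6 FPKM with lactoferrin+PM2.5, 51.5, 44.6 and 44.1 FPKM with PM2.5, and 39.6, 39.8 and 37.6 FPKM in control, with all exposed libraries above control (0.29 ± 0.08 with lactoferrin+PM2.5, adjusted p = 0.0254). The call of OAS1 was lost when control replicate 2 or 3, PM2.5 replicate 2, or replicate 1 or 2 of lactoferrin+PM2.5 was left out (adjusted p between 0.0503 and 0.0945), and that of HLA-C when control replicate 1 or 2 or lactoferrin+PM2.5 replicate 2 was left out (between 0.0607 and 0.0732). Removing the length and GC trend lowered the log2 fold change of HLA-C to 0.14 (adjusted p = 0.177). Both genes also lost the call without both libraries that stood apart, OAS1 at 0.27 (adjusted p = 0.170) and HLA-C at 0.27 (0.0562), and OAS1 held it in 12 of 20 alternatives and HLA-C in 16 of 21. IFITM3 (-0.37 ± 0.14, adjusted p = 0.0696) and IRF1 (0.29 ± 0.12, adjusted p = 0.0868), called with PM2.5, were not called here, although neither overlapped with control. IFITM3 was called lower in 4 of 21 alternatives, among them without both libraries that stood apart (-0.52, adjusted p = 0.0465). IRF1 was called higher in 1 of 21.

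Outside the members, among the receptors and kinases, IFNLR1 was higher with lactoferrin+PM2.5 than in control (0.67 ± 0.12, adjusted p = 0.0022) and JAK1 (-0.79 ± 0.12, adjusted p = 0.00086) and IFNGR2 (-0.45 ± 0.13, adjusted p = 0.0238) were lower. The inhibitor genes SOCS3 (0.88 ± 0.11, adjusted p = 0.00036) and SOCS1 (0.69 ± 0.18, adjusted p = 0.0154) were higher, SOCS1 on only 3 to 21 reads or fragments. HLA-DMB (0.89 ± 0.11, adjusted p = 0.00025) and PSMB7 (0.47 ± 0.15, adjusted p = 0.0299) were also higher, while CD74 was lower (-0.49 ± 0.10, adjusted p = 0.0042). By count, 3 of 12 other sensors and adaptors were higher and 3 lower, and 2 of 7 inhibitors were higher and 2 lower. Of 4 tested class II genes 1 was higher and 2 lower. These lists are small, and over all tested genes 19.6% were called higher and 18.5% lower. In this comparison the calls of IFNLR1, JAK1, SOCS3, HLA-DMB and CD74 held in all 21 alternatives, that of IFNGR2 in 16, that of PSMB7 in 14 and that of SOCS1 in 13 of 16.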

How the data were processed

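Sample labels gave each library's group and replicate number. The authors deposited FPKM per gene, 1 table per library, and the unit was inferred from the values: multiplied by the union exon length in GENCODE v29, 85.9% to 87.2% of the values at or under 200 reads or fragments gave a multiple of 1 step within a tolerance of 0.05. Per the submitters' processing notes, which give no order or settings, the authors' tools included DESeq2 1.22.1, featureCounts 1.6.0, HISAT2 2.1.0, Trimmomatic 0.38, MultiQC, FastQC and CASAVA, and the build was GRCh38. Which annotation release was used, whether counting used strand, and whether it counted reads or read pairs is not given in the sources used here.

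FPKM were divided by trimmed-mean factors (0.930 to 1.03; 30% of ratios and 5% of levels trimmed), and limma 3.58.1 in R 4.3.3 fitted log2(FPKM + 0.5) with a mean for each of 3 groups over all 9 libraries and eBayes with trend and robust options. This scale understates the change of low genes. P-values were adjusted by Benjamini and Hochberg's method over 14454 genes with at least 0.5 FPKM in at least 3 libraries. Calls are an adjusted p under 0.05. Printed levels are the deposited FPKM, and the rebuilt totals limit only the counting error. The procedure was run on simulated data, and the outcome is not reported here. The simulated noise was independent between libraries, so it held no library that stood apart. Replicates differed beyond sampling noise (chi-square per gene 2.32 to 47.1), so each library counted as 1 replicate. Named were members called in any comparison, the most abundant member of each role, and called genes of the other lists. Some genes of those lists are not reported here. The members and lists were chosen with earlier results of these data known. Promoters are from RefSeq (GRCh38.p14), and figures were drawn with matplotlib 3.10.9. Alternatives covered scaling, filters, pseudocounts, limma-voom, a replicate block, a trend on length and GC content, and each library left out.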

Additional observations from a re-analysis of the deposited data

How the results depend on the processing

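Across 21 alternatives no called member changed sign, 9 of 14 calls with PM2.5 against control and 11 of 16 with lactoferrin+PM2.5 against control held in all, and 0 members were called with lactoferrin+PM2.5 against PM2.5 in any. The number of members higher with PM2.5 fell to 5 with no filter on low values, where 47 members were tested and 6.57% of all genes were called higher, and ranged from 3 to 9 when 1 library was left out. The number lower ranged from 6 to 8. For lactoferrin+PM2.5 against control 9 to 14 were higher and 4 to 7 lower, and the median log2 fold change was 0.07 with no filter. With a replicate block 9 members were higher and 7 lower with PM2.5 against control, 14 and 6 with lactoferrin+PM2.5 against control, and 0 and 0 with lactoferrin+PM2.5 against PM2.5. The deviations of same-numbered libraries correlated at -0.07 to 0.18, and not every library correlated best with its own number, so the numbers were taken as labels only. Leaving out both libraries that stood apart and removing the length and GC trend were chosen after seeing the data. Members below 0.5 FPKM rested on at most 36 reads or fragments, which limits what could be detected in them. The cause of these shifts was not tested.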
